A study of Schmidtea mediterranea with 18 samples.

Results

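The comparison described here is Bcat RNAi against Control RNAi in trunk fragments of Schmidtea mediterranea, a planarian flatworm that regrows lost parts, at days 4, 5 and 6 after amputation. It holds 6 of the 18 libraries of the series, chosen by treatment and day from the labels: 3 of Bcat RNAi and 3 of Control RNAi, paired by day. In the Bcat RNAi group, worms of the asexual clonal strain CIW4, labelled wild type, ate double-stranded RNA against Smed-Bcatenin1. Control RNAi worms, whose library titles name GFP, ate control double-stranded RNA on the same plan. Both groups were reared on beef liver, had 3 feeds of double-stranded RNA, were cut 3 days after the last one and had been starved for a week before collection. CIW4 is 1 clone, so the worms share a genetic background. The rest of the series is days 1 to 3 of these treatments and APC RNAi at all 6 days. Each library was made from pooled RNA of 3 biological replicates, so an SD here is over 3 days. The p-values set a difference against a spread over days that was estimated from all 18 libraries, not against the spread between animals. The labels name trunk fragments, whereas the treatment protocol names tail fragments.

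Beta-catenin-1 is the effector of canonical Wnt signalling. When the pathway is on, the protein escapes breakdown, enters the nucleus and drives transcription together with TCF factors. In planarians the pathway is known for setting posterior identity: worms that lose beta-catenin-1 grow heads at wounds that would otherwise form tails. By the late days studied here, a cut trunk has closed its wounds and is building new tissue in the blastema, which stem cells supply.

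Counts per transcript summed to between 41832966 and 53873700 reads in the 6 libraries. Of 82955 transcripts listed, 36235 had enough reads to be tested. Transcripts carry SmedASXL identifiers that the files do not pair with gene names. For this reason, at most 2 transcripts that rose and 2 that fell are named per comparison, no role is given to them, and neither the knockdown of the targeted gene nor the markers of trunk tissue could be read. Levels are CPM, the count of a transcript relative to the total count of its library, after scaling with the trimmed mean of M values (TMM). CPM is not corrected for transcript length, so levels are compared between libraries, not between transcripts. The late control libraries stood apart from their Bcat RNAi partners, together with some early libraries, in a set of transcripts whose values are given after the late and early comparisons, with the counts of calls under a term for it.

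Among transcripts with a mean of 2 CPM or more over the 6 libraries, the largest late changes included the near loss of a small group. SmedASXL_012097 stood at 53.5 CPM at day 4, 60.8 CPM at day 5 and 70.4 CPM at day 6 in Control RNAi. In Bcat RNAi it stood at 0.0425, 0.195 and 0.165 CPM on the same days, from 2, 10 and 9 reads. No Bcat RNAi library came near any control library. The means were 61.5 CPM ± 8.47 and 0.134 CPM ± 0.0806 (SD, n = 3), which differed by -8.80 ± 0.23 (SE) in log2 (adjusted p = 8.52e-17, quasi-likelihood test of edgeR). APC is part of the complex that marks beta-catenin for breakdown. In APC RNAi the level of SmedASXL_012097 over the same days was between 67.9 and 98.3 CPM. In bulk RNA, fewer cells of a type and less RNA per cell cannot be told apart, here and in all results that follow.

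SmedASXL_010535 was the most abundant of the eligible transcripts that fell at least 2-fold. Its control levels were 1080.0, 993.3 and 813.6 CPM at days 4, 5 and 6, against 328.4, 378.4 and 293.7 CPM in Bcat RNAi. The groups did not overlap, and the control level went down over the 3 days. The fold change in log2 was -1.53 ± 0.10 (SE; adjusted p = 5.2e-10, edgeR). In the APC RNAi libraries of these days it stood at 1078.1, 1592.0 and 1075.2 CPM.

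Of the transcripts that rose, SmedASXL_058193 had the largest late change among those eligible to be named. It read 0.247, 1.39 and 0.995 CPM in control at days 4, 5 and 6, from 13, 83 and 55 reads, and 43.8, 36.9 and 66.1 CPM in Bcat RNAi. The lowest Bcat RNAi library was far above the highest control library. The change in log2 was 5.76 ± 0.28 (SE; adjusted p = 4.75e-12, edgeR), and its APC RNAi levels over these days did not exceed 0.214 CPM.

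SmedASXL_012943 was the most abundant eligible transcript that rose at least 2-fold. Control libraries held 326.7, 271.7 and 462.7 CPM at days 4, 5 and 6, and Bcat RNAi libraries 720.6, 680.3 and 799.0 CPM. The groups did not overlap, although the control library of day 6 was well above the other 2. In log2 it rose by 1.08 ± 0.17 (SE; adjusted p = 0.000108, edgeR). In the first 3 days the estimate was 0.42 ± 0.16 in log2 (SE; adjusted p = 0.117, edgeR), and at day 1 the levels were 523.2 CPM in Bcat RNAi and 509.0 CPM in control. The late and early changes were not shown to differ (log2 difference 0.66, SE 0.23, adjusted p = 0.593, edgeR).

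**Figure D1:**
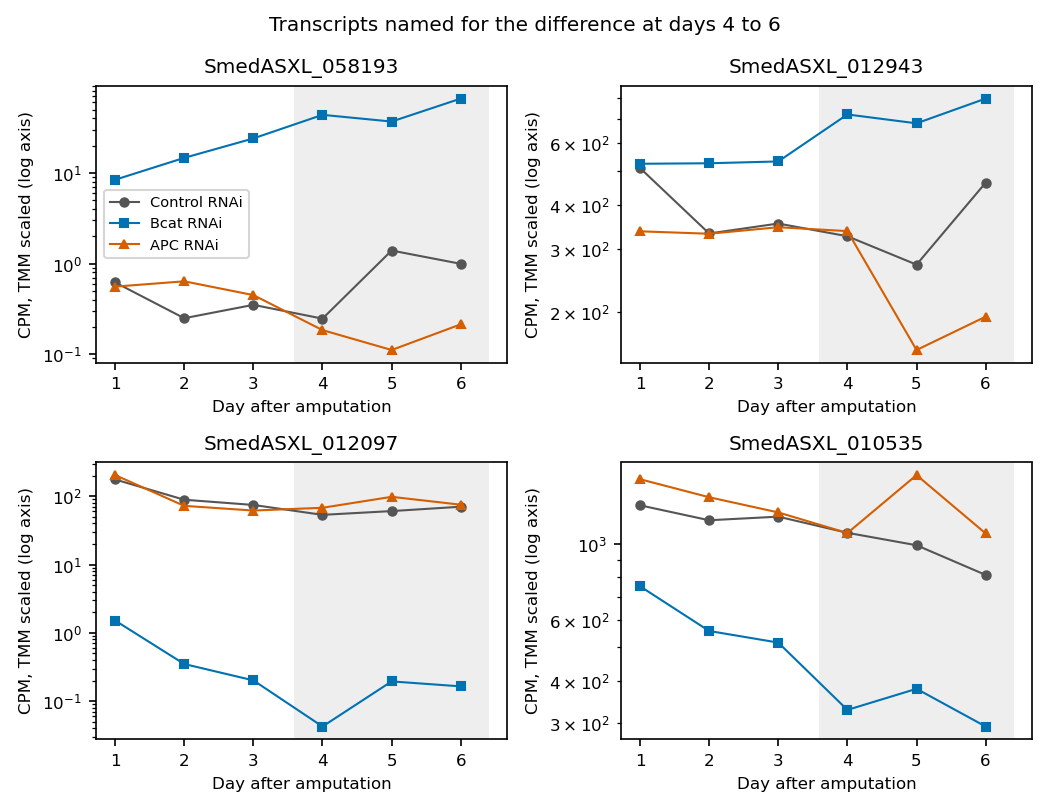
Level of the 4 transcripts named for days 4 to 6 in each of the 18 libraries, as CPM on a log axis against day after amputation, 1 point per library. In the shaded days 4 to 6 the Bcat RNAi points lie above all control points for SmedASXL_058193 and SmedASXL_012943 and below all control points for SmedASXL_012097 and SmedASXL_010535.

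Across all transcripts tested, 2370 were higher in Bcat RNAi at days 4 to 6 (6.54% of 36235) and 2505 were lower (6.91%), at an adjusted p under 0.05 in edgeR's quasi-likelihood test. Most changes were below 2-fold: 325 rose at least 2-fold (0.897%) and 734 fell at least 2-fold (2.03%). Direction was the same at each of the 3 days for 2357 of the 2370 higher transcripts and 2481 of the 2505 lower ones. Of all tested transcripts, 22.4% were higher and 23.6% lower at all 3 days; the called transcripts were chosen on these libraries, which favours an even direction. The 3 Bcat RNAi libraries lay wholly above the 3 control libraries for 2113 of the higher transcripts and wholly below them for 2309 of the lower ones, where 12% of all tested transcripts lay wholly above and 13.7% wholly below. The fit used all 18 libraries for its estimate of spread. The counts moved with the days in the fit: without day 4, 1538 were higher and 1055 lower, without day 5, 1096 and 1446, and without day 6, 1250 and 1359.

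The share of transcripts called, and its balance, varied with abundance. Of 20907 tested transcripts whose mean was under 2 CPM over the 6 libraries, 350 (1.67%) were higher and 944 (4.52%) lower, and 221 and 591 of these passed 2-fold. They made up 68% of all transcripts that rose at least 2-fold and 80.5% of those that fell. From 2 to 16 CPM, 697 of 7498 were higher and 884 lower. From 16 to 128 CPM the balance was the other way, with 1136 of 6723 higher and 573 lower, and at 128 CPM or more 187 of 1107 were higher and 104 lower. The median log2 fold change of these classes was -0.07, -0.003, 0.07 and 0.05, from the scarcest to the most abundant. Medians this small are open to the choice of scaling. With TMM restricted to 4 CPM and above, the median over all tested went from -0.009 to -0.049, with 1939 called higher and 2966 lower. RLE factors gave 2284 and 2250, and loess offsets 2368 and 2628. Whether the balance within the classes holds under other scaling was not tested.

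**Figure D2:**
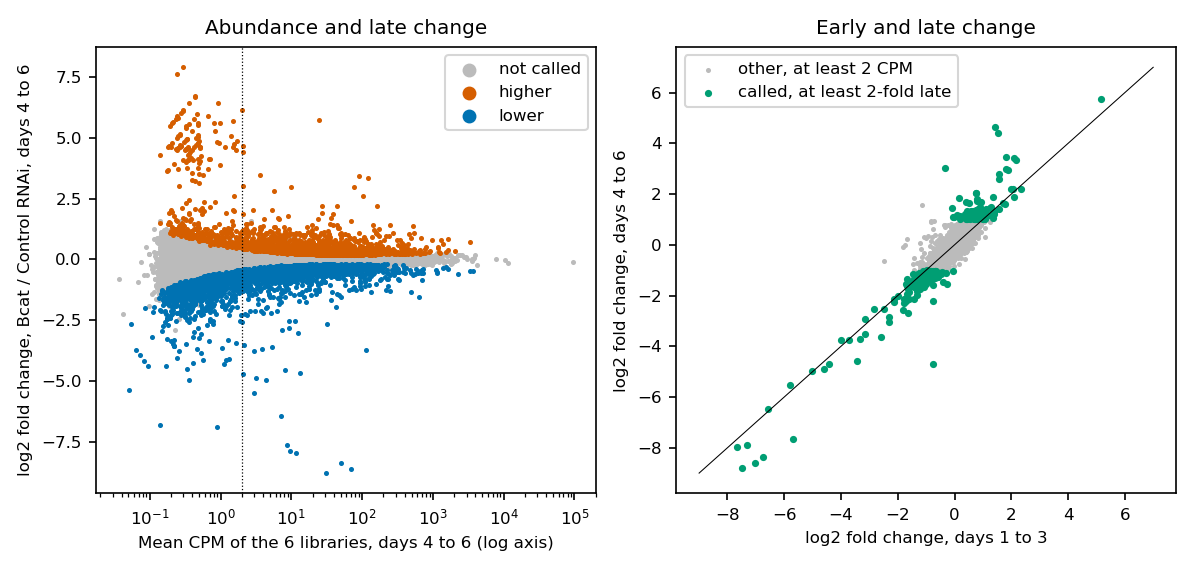
Left, log2 fold change of Bcat RNAi over Control RNAi at days 4 to 6 against mean CPM of the 6 libraries on a log axis, 1 point per tested transcript, with called transcripts coloured and a dotted line at 2 CPM. Right, log2 fold change at days 4 to 6 against that at days 1 to 3 for the 15328 transcripts of at least 2 CPM, with a line of equal change and the transcripts called and changed at least 2-fold late in green; across all points r is 0.87.

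Among the 15328 transcripts whose mean was 2 CPM or more, 104 rose and 143 fell at least 2-fold, each in the same direction at all 3 days. These 2 counts stayed within 1.5 times of their values under every setting tried, from 71 to 121 for higher transcripts and from 105 to 157 for lower ones. At this abundance 8 transcripts fell at least 32-fold and 1, SmedASXL_058193, rose as much. Below 2 CPM the balance was the reverse, with 3 that fell and 35 that rose at least 32-fold, so that over all tested transcripts 11 fell and 36 rose. The 8 had late control means between 5.83 and 138.0 CPM, with a median of 21.4 CPM, and Bcat RNAi means between 0.0769 and 0.351 CPM. No Bcat RNAi library of days 4 to 6 held more than 21 reads of any of them, and no control library held fewer than 275. Their APC RNAi means over these days were between 22.6 and 243.2 CPM, so all were readily detected there. All 8 were also called lower at days 1 to 3, with log2 fold changes between -7.66 and -5.69.

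The next steps of the fall held more transcripts and smaller early changes. A further 11 fell 8 to 32-fold, 14 fell 4 to 8-fold and 110 fell 2 to 4-fold. The median log2 fold change of the 11 was -3.77 at days 4 to 6 and -3.42 at days 1 to 3. For the 14 it was -2.27 and -1.80, and for the 110 it was -1.26 and -1.05. On the other side, 7 transcripts rose at least 8-fold, 9 rose 4 to 8-fold and 88 rose 2 to 4-fold. The medians of the 7 were 3.48 late and 1.81 early, those of the 9 were 2.22 and 1.83, and those of the 88 were 1.15 and 0.79. All 7 size classes thus had a late median farther from 0 than the early one; the late values chose the classes, which favours this order.

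The early days hold the same measure in other libraries of both treatments. These libraries do not enter the late log2 fold changes directly, but they share the scaling and the estimate of spread behind the late calls, so the choice of transcripts was not fully independent of them. Of the 143 lower transcripts, 126 (88.1%) were also called lower at days 1 to 3, where 5.9% of all tested transcripts were, and 0 were called higher. Of the 104 higher ones, 88 (84.6%) were called higher at days 1 to 3, against 3.92% of all tested, and 0 were called lower. The shares of all tested include the transcripts under 2 CPM, which were called less often at days 4 to 6. Matching early shares for 2 CPM or more are not given. Of the transcripts under 2 CPM that changed at least 2-fold late, 195 of 591 lower (33%) and 118 of 221 higher ones (53.4%) were called the same way early. From the other side, 273 of the 357 transcripts that fell at least 2-fold early (0.985% of those tested) and 145 of the 193 that rose (0.533%) were called the same way late, which is 76.5% and 75.1%. Across the 15328 transcripts of at least 2 CPM, the late and early log2 fold changes correlated with r = 0.87. Transcripts are not independent replicates.

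Both sets were chosen for their difference at days 4 to 6, which favours larger medians there than at days 1 to 3, and the day profiles are given as a description with no test. For the 104 higher transcripts the median same-day log2 difference was 0.60, 0.98 and 1.05 at days 1, 2 and 3, and 1.14, 1.25 and 1.35 at days 4, 5 and 6. Of the 104, 75 stood farther from control at day 6 than at day 4. For the 143 lower transcripts the median was -0.79 at day 1, -1.43 at day 2 and -1.51 at day 3, followed by -1.49, -1.38 and -1.41 at days 4, 5 and 6, and 54 of 143 were farther from control at day 6 than at day 4. The lower and upper quartiles at day 1 were -1.46 and 0.12, and 30 of the 143 belong to a set that is high in the Bcat RNAi library of day 1, described with the library patterns. All transcripts of at least 2 CPM had daily medians between -0.05 and 0.10, with -0.03 at day 4 and 0.04 at day 6. A shift of this sign moves higher transcripts away from control and lower ones towards it. The share of all transcripts that stood farther from control at day 6 than at day 4 is not given.

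**Figure D3:**
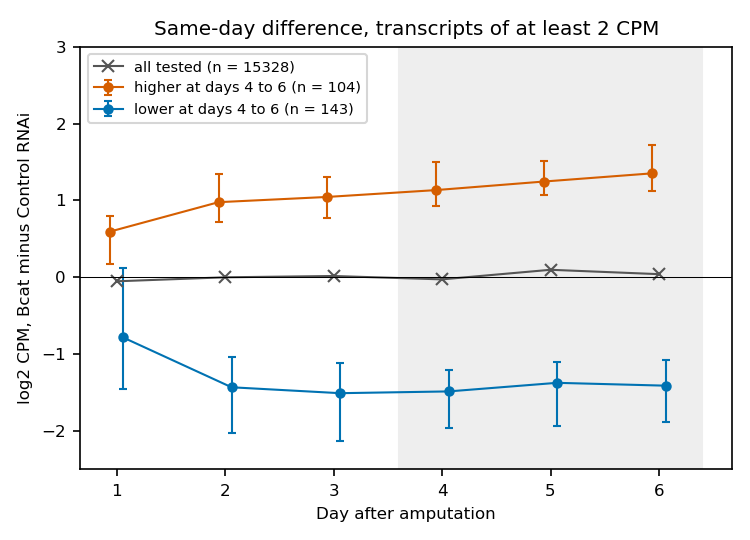
Same-day difference in log2 CPM between Bcat RNAi and Control RNAi at each day after amputation for transcripts of at least 2 CPM. Points are medians, bars span the first to the third quartile over transcripts, and grey crosses are all tested transcripts; the higher set went from 0.60 at day 1 to 1.35 at day 6, and the lower set stayed between -1.38 and -1.51 from day 2 on.

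Whether the difference of single transcripts grew or shrank between day 4 and day 6 was tested as a trend per day. None of the 36235 transcripts passed an adjusted p under 0.05 in edgeR (0% in each direction). At an unadjusted p under 0.05 in edgeR, 419 trends were higher (1.16%) and 424 lower (1.17%). Evenly spread p-values, as with no effect, would put a share of 0.05 there over both directions together. DESeq2 also called 0, with 179 of the 36235 at an unadjusted p under 0.05. Each day has 1 library per treatment, which limits this test.

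Whether the late difference was another than the early one was tested as the difference between the late and the early log2 fold change. In this test 4 transcripts had a more negative late effect (0.011%) and 9 a more positive one (0.0248%), at an adjusted p under 0.05 in edgeR. At an unadjusted p under 0.05 in edgeR there were 1010 (2.79%) and 1253 (3.46%), where evenly spread p-values would give a share of 0.05 over both directions together. The counts at the adjusted threshold depended on each day. In the order more negative and more positive, they were 3 and 63 without day 1, 3 and 0 without day 2, 12 and 46 without day 3, 2 and 4 without day 4, 50 and 25 without day 5, and 1 and 0 without day 6. SmedASXL_068695 had the most negative difference. In control it went from 54.3 CPM at day 1 to 31.1, 25.2 and 20.8 CPM at days 4, 5 and 6. In Bcat RNAi it began near control, at 46.2 CPM at day 1, and had 2.76, 0.331 and 0.165 CPM at days 4, 5 and 6, from 130, 17 and 9 reads. Its log2 fold change was -0.78 (SE 0.23) at days 1 to 3 and -4.68 (SE 0.33) at days 4 to 6. The difference of -3.91 (SE 0.41, adjusted p = 0.000211, edgeR) passed the threshold under all 15 alternatives. In APC RNAi the late levels were 52.5, 51.7 and 43.2 CPM. The transcripts lost at least 32-fold were already low at day 1 of Bcat RNAi, with a median of 0.708 CPM against 49.8 CPM in control, whereas SmedASXL_068695 still held 33.6 and 18.4 CPM at days 2 and 3.

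SmedASXL_081108 followed the same course on a smaller scale. Control libraries stayed between 7.46 and 9.28 CPM over all 6 days. The Bcat RNAi libraries held 7.14, 4.48 and 4.43 CPM at days 1 to 3 and 2.21, 2.14 and 1.21 CPM at days 4 to 6, below the control library of the same day each time. Late and early log2 fold changes of -2.21 and -0.76 differed by -1.46 (SE 0.22, adjusted p = 0.0208, edgeR). The other 2 of the 4 were likewise called lower both early and late.

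Of the 9 with a more positive late effect, SmedASXL_005910 and SmedASXL_001082 had the largest difference among those eligible. SmedASXL_005910 was below control at each of days 1 to 3, with 2.14, 0.700 and 1.21 CPM against 4.53, 3.38 and 4.69 CPM. At days 4 to 6 it held 3.42, 1.73 and 3.68 CPM against 2.64, 2.12 and 2.53 CPM, and the groups overlapped. Its log2 fold change was -1.67 early (adjusted p = 3.55e-05) and 0.23 late (adjusted p = 0.545), a difference of 1.90 (SE 0.31, adjusted p = 0.0217, edgeR).

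SmedASXL_001082 went from 2.32 CPM at day 2 and 2.28 CPM at day 3 to 6.59, 3.78 and 8.74 CPM at days 4, 5 and 6 in Bcat RNAi, against late control levels of 7.82, 5.60 and 6.50 CPM. Its log2 fold changes were -1.81 early and -0.09 late, a difference of 1.72 (SE 0.30, adjusted p = 0.0377, edgeR). In both transcripts Bcat RNAi was below control at days 1, 2 and 3 and lay on both sides of it in the late days. Of the 9, 3 were called lower early and not called late, and 6 were not called early and called higher late. These calls were less firm than that of SmedASXL_068695. Without day 6 the difference was 1.73 for SmedASXL_005910, 1.41 for SmedASXL_001082 and -1.30 for SmedASXL_081108, and none of these 3 passed the threshold; without day 4 or day 2 the first 2 did not pass either.

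**Figure D4:**
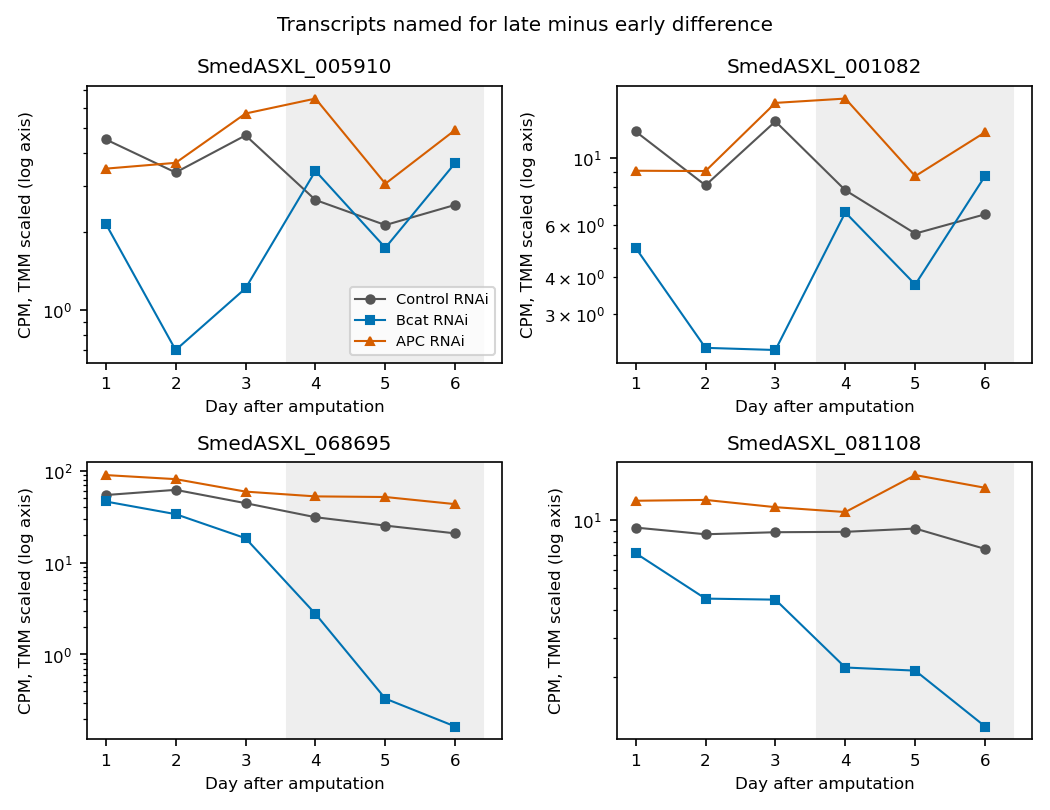
Level of the 4 transcripts named for the difference between late and early effects in each of the 18 libraries, as CPM on a log axis against day after amputation, 1 point per library. Bcat RNAi lies farther below control at days 4 to 6 than at days 1 to 3 for SmedASXL_068695 and SmedASXL_081108, and on both sides of control at days 4 to 6 for SmedASXL_005910 and SmedASXL_001082.

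A late call without an early one was rarely backed by a difference between the periods. Of the 143 lower transcripts, 17 were not called at days 1 to 3. All 17 had a negative early estimate, from -1.44 to -0.05 on the log2 scale, but 0 of them were below control at each of days 1, 2 and 3. Of these 17, 0 passed the test of the difference. Of the 104 higher ones, 16 were not called early, and 12 of these had a positive early estimate. Of the 16, 5 were above control at each of days 1, 2 and 3, and 1 passed the test of the difference. As background, 23.2% of the 15328 transcripts from which both sets were drawn lay above control on every early day, and 29.9% lay below it. The 5 of 16 are thus no sign of an early rise beyond the background.

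A pair of patterns across libraries ran alongside the late comparison. In the first, 488 transcripts (1.35% of those tested) were higher in Control RNAi of days 2 to 6 and in Bcat RNAi of day 1 than in each of the other 12 libraries. This set was chosen after its values were seen. Summed over it, the late control libraries held 1251.9, 1296.7 and 1277.1 CPM and the late Bcat RNAi libraries 684.5, 691.1 and 787.9 CPM. The Bcat RNAi library of day 1 held 1189.4 CPM and the control library of day 1 held 825.4 CPM, the reverse order. The pattern was present in 194 of the 734 transcripts that fell at least 2-fold late (26.4%), in 30 of the 143 of at least 2 CPM, and in 0 of the 8 that fell at least 32-fold. Its definition sets all late control libraries above all late Bcat RNAi libraries, so an overlap with lower transcripts was built in. Of the 488, 277 (56.8%) were called lower late. The 8 had a median of 0.708 CPM in Bcat RNAi of day 1, which the pattern needs high, so their 0 follows from the definition. All 3 control and none of the Bcat RNAi libraries of days 4 to 6 belong to the libraries that are high in the pattern, so within the late days this pattern and the treatment cannot be told apart. With a term for it, which the early libraries set, 524 transcripts were higher and 695 lower, 181 and 206 of them at least 2-fold. Among those of at least 2 CPM, 71 rose and 105 fell at least 2-fold with the term, and the 4 transcripts named for the late change passed the threshold in the same direction. Of these 4, SmedASXL_012943 passed with a log2 fold change of 0.79, which is below 2-fold (adjusted p = 0.0372, edgeR).

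In the second, 105 of the 112 transcripts that rose at least 8-fold had a mean under 2 CPM. Summed over these 105, the late control libraries held 5.29, 1.73 and 4.00 CPM and the late Bcat RNAi libraries 30.2, 62.0 and 204.9 CPM. The Bcat RNAi library of day 6 gave 70.9% of their reads in the 3 late Bcat RNAi libraries. These transcripts were also read outside the late Bcat RNAi libraries. Bcat RNAi held 47.1 and 74.4 CPM at days 2 and 3, against 13.3 and 5.32 CPM in control and 11.8 and 5.91 CPM in APC RNAi. Day 1 libraries held 137.5 CPM in Bcat RNAi, 68.4 CPM in control and 53.4 CPM in APC RNAi, and the APC RNAi library of day 6 held 45.4 CPM. Bcat RNAi was thus above control at all 6 days in sum, and the median same-day log2 difference of the 105 ranged from 1.27 at day 1 to 4.77 at day 6. The filter on reads asked for enough reads in as many libraries as a treatment has. Transcripts this scarce in control could pass it through Bcat RNAi libraries, the early ones included. This favours Bcat RNAi above control at the early days too, so those days are no independent support. Over all abundances, 290 transcripts rose at least 2-fold without day 4, 280 without day 5 and 244 without day 6.

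**Figure D5:**
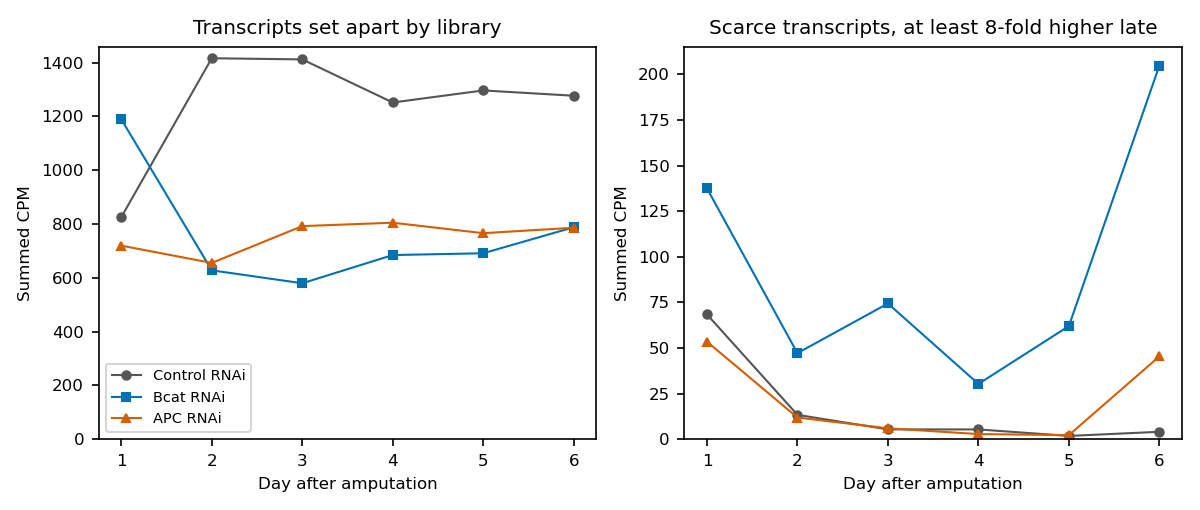
Summed CPM in each of the 18 libraries against day after amputation, for the 488 transcripts that are higher in Control RNAi of days 2 to 6 and Bcat RNAi of day 1 (left) and for the 105 transcripts under 2 CPM that rose at least 8-fold at days 4 to 6 (right). The late control libraries lie between 1251.9 and 1296.7 CPM on the left, and the Bcat RNAi library of day 6 reaches 204.9 CPM on the right.

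Summed over transcripts of at least 2 CPM that changed at least 2-fold, the 143 lower transcripts held 6742.2, 6445.3 and 5928.7 CPM in control at days 4, 5 and 6, and 2280.0, 2545.4 and 2060.1 CPM in Bcat RNAi. The 104 higher ones held 2959.3, 2841.2 and 2659.0 CPM in control and 7113.1, 7313.5 and 7279.2 CPM in Bcat RNAi. These sums describe transcripts chosen on the same libraries. In the APC RNAi libraries of these days the first set held 8030.6, 9603.0 and 7578.6 CPM, and the second 3741.2, 4016.0 and 3391.4 CPM.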

How the data were processed

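PolyA RNA was sequenced by the authors from 18 libraries, 1 per treatment and day, and the deposited values are raw read counts per transcript. The submitters' processing notes name bcl2fastq (version 1.8.3), Bowtie2 (version 2.2.4) and DESeq2. Their settings, the use of strand and the placing of reads that match several transcripts are not given in the sources used here. Values of near-identical or overlapping transcripts are therefore uncertain. Per the file headers, 2 rows name no transcript (total and unaligned reads); they were left out. Unaligned reads made up between 5.51% and 5.91% of reads in the 6 late libraries. The authors' deposited table of APC RNAi against Bcat RNAi was not used.

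The tests were run with edgeR 4.0.16 under R 4.3.3. Transcripts were kept by filterByExpr by treatment, which left out transcripts with 0.284% of reads, and libraries were scaled with TMM. The quasi-likelihood test used all 18 libraries, day as a factor and treatment by period (days 1 to 3, days 4 to 6), with 8 residual degrees of freedom. The trend model added treatment by day within days 4 to 6, with 6. Adjustment was by Benjamini-Hochberg over the 36235 transcripts, and a call is an adjusted p under 0.05. Same-day differences are on the log2 CPM scale (prior count 2). SE values come from the quasi-likelihood F statistic.

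Libraries were paired by day, which the labels state and which also numbers the replicates; the factor for day is thus the replicate block. Same-day deviations from the treatment means correlated with r = 0.385, 0.357 and 0.302 at days 4, 5 and 6 (Bcat RNAi with Control RNAi, transcripts of at least 2 CPM). No pair of the 6 libraries agreed within sampling noise (lowest chi-square per degree of freedom 5.41).

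Eligible to be named were called transcripts whose mean log2 CPM over the 6 libraries was 1 or more and, for the late change, 1 direction at all 3 days. Named per direction were, for the late change, the largest change and the most abundant with at least 2-fold change, and for the other tests the 2 largest. The comparison, rules and tests were chosen with earlier results of these data known. Gene lists could not be read without names. Alternatives covered scaling, filters, DESeq2 1.42.0, the replicate block, the libraries used and each day left out.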

Additional observations from a re-analysis of the deposited data

Results flagged for a closer look

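The effect of Bcat RNAi differed between days 4 to 6 and days 1 to 3, by a test of the difference itself (edgeR quasi-likelihood test, adjusted p under 0.05), for 9 transcripts with a more positive and 4 with a more negative late effect. The named ones were SmedASXL_005910, with a log2 difference of 1.90, SmedASXL_001082, with 1.72, SmedASXL_068695, with -3.91, and SmedASXL_081108, with -1.46. The explanation was not tested.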

How the results depend on the processing

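The 4 transcripts named for the late change kept their direction and call under all 13 alternatives, and so did SmedASXL_068695 for late minus early under its 15. The late log2 fold change of SmedASXL_012943 ranged from 0.79 to 1.24, so it did not always reach 2-fold. SmedASXL_005910 failed the threshold in 7 of 15, SmedASXL_001082 in 8 and SmedASXL_081108 in 4, with adjusted p up to 0.698, 0.698 and 0.18. Counts moved by more than 1.5 times as follows, where the main values are 2370 higher and 2505 lower late, 325 and 734 at least 2-fold, 9 and 4 for late minus early and 0 and 0 for the trend. With no replicate block, 998 were higher and 1391 lower, and late minus early gave 0 and 1. Leaving out 1 day gave 1096 to 1538 higher, 1055 to 1446 lower, 414 to 478 lower at least 2-fold, and 0 to 63 and 1 to 50 for late minus early. With no filter, 616 rose at least 2-fold, late minus early gave 262 and 61 and the trend 16 and 5. With at least 1 CPM in 3 libraries, 140 and 330 changed at least 2-fold and late minus early gave 0 and 1. DESeq2 called 1623 lower, 165 and 347 at least 2-fold, and 25 and 10 for late minus early; its adjusted p was not given for 13348 transcripts late. TMM scaling on transcripts of 4 CPM or more gave 1 and 1 for late minus early, loess offsets 3 higher, and RLE factors 1 lower trend. A term shared by the control libraries of days 2 to 6 and the day 1 library of Bcat RNAi, added after seeing the data, gave 524 higher, 695 lower, 181 and 206 at least 2-fold, 33 for the more positive late effect and 1 lower trend. The counts with the 6 late libraries alone, 3006 higher and 3680 lower, did not move by 1.5 times. Counts of at least 2-fold change at 2 CPM or more, also added after seeing the data, did not either. The cause of the moves was not tested, except that another filter changes how many transcripts are tested. Below 2 CPM, 1.67% of transcripts were called higher and 4.52% lower late, and the part that depth plays in these shares was not tested.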
